A study of Mus musculus with 12 samples.

Results

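The comparison here is between 2 kinds of training given to mice on the same high-fat diet. It set 3 liver RNA libraries of the HFD+RE group against 3 of the HFD+AE group, chosen by their labels alone, out of 12 libraries in the series. All mice were male C57BL/6, an inbred laboratory strain, aged 6 weeks at the start, with 1 week of adaptation. HFD+RE and HFD+AE mice ate the high-fat diet D12492 for 8 weeks and were then trained for at least 12 weeks. HFD mice ate that diet without training, and NC mice ate a normal diet without training. The labels do not spell out RE and AE. In this field the letters usually mean resistance and aerobic exercise. The sources used here do not give the device, the load or the time between the last session and collection of the liver. Nor do they say whether each library came from its own animal, so the p-values measure the spread between libraries, which may be technical. The libraries were numbered 3, 4 and 5 in HFD+RE and 1, 2 and 3 in HFD+AE, and values are listed in that order.

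The liver answers exercise mainly through hormones and circulating fuels. During exercise glucagon and glucocorticoids rise and insulin drops, which turns on genes of glucose output and fatty acid oxidation and turns off genes of fat synthesis. After feeding, insulin does the reverse through the forkhead factor FOXO1 and the sterol-regulatory factor SREBP-1c, so the transcripts of both programmes follow meals and time of day as well as training.

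The values are read counts per gene, printed as counts per 1000000 of the scaled library total (CPM). Total counts were 51178332 to 61089139 in HFD+RE and 55922691 to 65434486 in HFD+AE. Alb, the albumin gene of hepatocytes, took 6.05% to 9.1% of the counts in HFD+RE and 7.11% to 8.51% in HFD+AE. The libraries of a training group were not alike. On the first principal component, which held 40.6% of the variance over the 12 libraries, HFD+RE lay at -36.6, 50.4 and 52.6 and HFD+AE at -40.4, -36.9 and 13.9. The root mean square log2 distance over all tested genes was 0.633 to 0.956 within HFD+RE, 0.518 to 0.86 within HFD+AE and 0.609 to 0.944 between the 2 groups. The library nearest to HFD+RE 3 was HFD+AE 1 (0.609), and the library nearest to HFD+AE 3 was HFD+RE 4 (0.676). Gene length moved with the same axis: across the 18305 tested genes, the rank correlation of a library's deviation from the mean of all libraries with length was 0.225, -0.287 and -0.307 in HFD+RE and 0.292, 0.287 and -0.0322 in HFD+AE. The share of counts from mitochondrial ribosomal RNA was 0.685%, 1.11% and 1.71% in HFD+RE and 0.867%, 0.771% and 0.842% in HFD+AE. What part these features had in the differences between the groups was not tested.

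**Figure D1:**
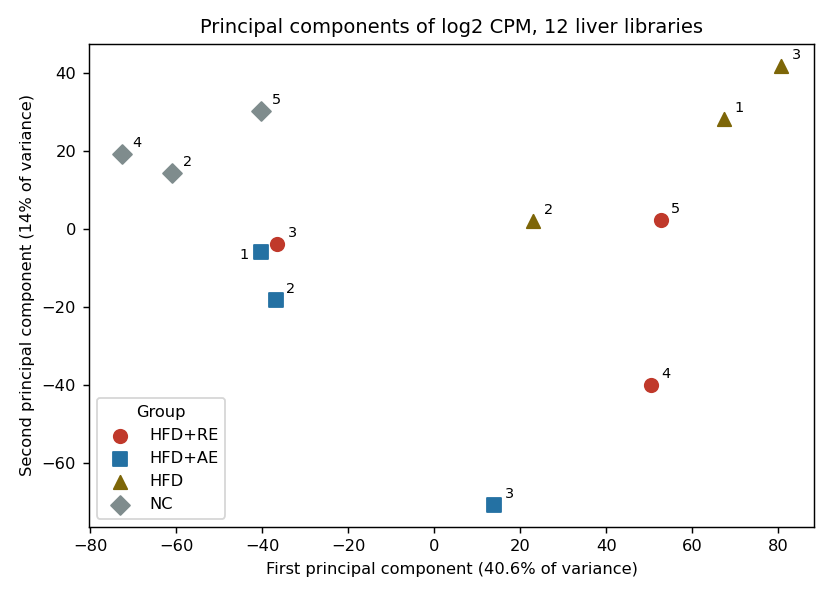
First (40.6% of variance) and second (14%) principal components of log2 CPM for the 12 liver libraries, one point per library with its label number. HFD+RE 3 lies beside HFD+AE 1 and 2 on the first component, and HFD+AE 3 lies at 13.9, nearer to HFD+RE 4 and 5 than HFD+AE 1 and 2 are.

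No single gene separated the 2 kinds of training beyond the spread between libraries in the edgeR quasi-likelihood test. Of the 55291 genes listed, 18305 had enough counts to test, and 0 (0%) were called at a Benjamini-Hochberg adjusted p below 0.05; the smallest adjusted p was 0.518. At an unadjusted p below 0.05 there were 1468 genes (8.02%), of which 941 were higher in HFD+RE (5.14%) and 527 lower (2.88%). DESeq2 called 24 genes (0.134% of the 17964 it adjusted), 17 higher in HFD+RE and 7 lower. limma voom with sample quality weights called 5975 (32.6%), with a weight of 0.213 for HFD+RE 3 and 0.224 for HFD+AE 3 against 1 to 3.13 for the other 4. The median log2 difference over all tested genes was 0.01, and 50% of genes lay between -0.25 and 0.33. The median standard error (SE) of that difference was 0.31. The groups did not overlap for 1076 genes that were higher in all 3 HFD+RE libraries than in any HFD+AE library (5.88%) and for 989 that were lower in all 3 (5.4%). These shares are the background for every count of non-overlapping genes in a list. Unless DESeq2 is named, each adjusted p of a gene comes from the edgeR test over all 18305 genes, and log2 differences are HFD+RE minus HFD+AE.

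Of the 10 genes with the smallest p among those lower in HFD+RE, Igfbp1, Nr4a1, Pdk4 and Zbtb16 are given first, a grouping made after their values were seen; insulin is known to hold such genes down or fasting and stress hormones to turn them on. The others, Ablim3, Acnat2, Map3k13, Map3k5, Nr1i3 and Pdgfrl, are given with their own roles further on, and edgeR called none of the 10. Igfbp1 encodes a secreted protein that binds insulin-like growth factors, and insulin represses its transcript in liver. It stood at 19.3, 12.8 and 10.2 CPM in HFD+RE against 92.4, 99.6 and 66.1 CPM in HFD+AE. All 3 HFD+RE libraries were lower than every HFD+AE library, and the log2 difference was -2.61 (SE 0.52; adjusted p = 0.518 in edgeR and 0.00066 in DESeq2). In the untrained groups it averaged 17.9 ± 12.1 CPM in HFD and 82.2 ± 45.4 CPM in NC (SD, n = 3 each), so HFD+RE lay near HFD and HFD+AE near NC. Leaving out any 1 exercised library gave log2 differences from -2.90 to -2.42. The gene lies on chromosome 11 (7197782 to 7202546, plus strand, mm10).

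Nr4a1 is an orphan nuclear receptor whose transcript appears within minutes of cyclic AMP or stress signals and which can induce genes of glucose output in mouse liver. Its level was 2.33, 1.38 and 1.5 CPM in HFD+RE and 6.98, 11.6 and 3.34 CPM in HFD+AE. The groups did not overlap, with HFD+AE 3 the closest to HFD+RE, and the log2 difference was -2.08 (SE 0.40; adjusted p = 0.518 in edgeR and 0.00116 in DESeq2). Nr4a1 averaged 1.93 ± 0.27 CPM in HFD and 2.95 ± 0.723 CPM in NC (SD, n = 3 each), so HFD+AE lay above both means. Nr4a1 lies on chromosome 15 (101254269 to 101274795, plus strand, mm10).

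The promoter windows of these 2 genes, from 250 bases before to 50 bases after the RefSeq gene start, are shown with 2 motifs marked. The 2 genes were picked after their values were seen. RefSeq's table on GRCm38.p6 held a window for 11 of the 20 genes with the smallest p (10 in each direction), all of which were searched on both strands for 2 motifs chosen after the values were seen. Capitals mark CAAAACA, the core of the insulin response sequence, in Igfbp1 (chr11:7197537-7197836, plus strand), and TGCGTCA, a motif like the cyclic AMP response element, in Nr4a1 (chr15:101266596-101266895, plus strand), whose window belongs to a start inside the gene's annotated span.
Igfbp1: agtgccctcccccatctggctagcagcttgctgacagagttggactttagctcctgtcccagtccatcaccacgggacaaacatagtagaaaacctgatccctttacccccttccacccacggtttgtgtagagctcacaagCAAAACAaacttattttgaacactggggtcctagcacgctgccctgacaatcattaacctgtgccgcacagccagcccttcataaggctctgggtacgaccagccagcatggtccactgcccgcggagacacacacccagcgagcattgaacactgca
Nr4a1: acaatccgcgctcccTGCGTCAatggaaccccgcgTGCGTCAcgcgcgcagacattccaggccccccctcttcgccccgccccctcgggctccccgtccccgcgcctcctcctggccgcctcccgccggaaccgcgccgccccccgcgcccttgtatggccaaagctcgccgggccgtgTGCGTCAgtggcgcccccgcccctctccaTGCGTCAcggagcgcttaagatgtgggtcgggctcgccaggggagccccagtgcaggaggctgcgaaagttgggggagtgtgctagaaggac
CAAAACA began at position -108 from the gene start in Igfbp1, and TGCGTCA began at -235, -215, -71 and -42 in Nr4a1, all on the plus strand. Of 32851 windows of 300 bases, 6.28% held CAAAACA and 2.12% held TGCGTCA. Among the 11 windows, CAAAACA was in 2 (Igfbp1 and Map3k13) and TGCGTCA in 1 (Nr4a1). Pdk4 was not among the genes with a match, and Zbtb16 had no window and so was not searched. A match describes the letters only, and no binding was measured.

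Pdk4, the kinase that shuts pyruvate dehydrogenase and so spares glucose in fasting, was low in both groups: 1.74, 2.11 and 1.51 CPM in HFD+RE against 5.58, 6.22 and 6.67 CPM in HFD+AE. The 3 libraries of each group lay close together with a gap between the groups (log2 difference -1.78, SE 0.37; adjusted p = 0.556 in edgeR and 0.00626 in DESeq2). Pdk4 averaged 4.96 ± 2.52 CPM in HFD and 6.67 ± 3.15 CPM in NC (SD, n = 3 each), so HFD+RE lay below both means. Zbtb16, a zinc finger factor induced by glucocorticoids, stood at 21, 13.3 and 15.7 CPM in HFD+RE and 90.7, 73.8 and 33.9 CPM in HFD+AE. HFD+AE 3 was again the lowest of its group but still higher than all of HFD+RE (log2 difference -1.99, SE 0.40; adjusted p = 0.518 in edgeR and 0.0023 in DESeq2). Zbtb16 averaged 25.1 ± 10.3 CPM in HFD and 80.2 ± 26.6 CPM in NC (SD, n = 3 each), so HFD+RE lay nearer to HFD. G6pc, the catalytic subunit of the enzyme that releases free glucose, was 265, 282 and 467 CPM in HFD+RE and 502, 777 and 485 CPM in HFD+AE. The groups did not overlap, by a narrow margin between HFD+RE 5 and HFD+AE 3 (log2 difference -0.80, SE 0.32, adjusted p = 0.606).

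Of the 16 genes of gluconeogenesis, glycolysis and glycogen, 0 were called, all 16 had a log2 difference below 0 and the median was -0.28. The groups did not overlap for 2 of them, G6pc and Pcx. Pcx, pyruvate carboxylase, was 541, 571 and 416 CPM in HFD+RE and 599, 591 and 912 CPM in HFD+AE (log2 difference -0.46, SE 0.25). Pck1, which commits carbon to glucose synthesis, overlapped: it was 2124, 2888 and 2707 CPM in HFD+RE and 3755, 3408 and 2718 CPM in HFD+AE (-0.36, SE 0.22). Genes of glucose output and of glucose use were on the same side of 0. Of 15 glucocorticoid response genes, 11 lay below 0 with a median of -0.31, 0 were called and 3 were lower without overlap. Zbtb16 and Pdk4, given above for their small p, were among the 3. The median was -0.13 without HFD+AE 2 and -0.48 without HFD+AE 3. Of 15 genes of insulin receptor signalling, 12 lay below 0 with a median of -0.18. That median was 0.02 after each library's trend on gene length was removed, -0.076 without HFD+AE 1 and -0.31 without HFD+AE 3. Irs1, the docking protein of the insulin receptor, was 14.1, 4.31 and 3.05 CPM in HFD+RE and 18.1, 18.1 and 13.3 CPM in HFD+AE, with HFD+RE 3 inside the HFD+AE range.

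Transcripts of cellular activation and protein folding were also mostly lower in HFD+RE. Of 19 immediate early genes, 15 lay below 0 and the median was -0.38. None (0) was called, and 7 were lower without overlap (background 5.4%), Nr4a1 among them. The median was -0.17 without HFD+RE 5. Fos, a subunit of the factor AP-1, was 1.29, 1.05 and 0.865 CPM in HFD+RE and 1.92, 3.1 and 2.02 CPM in HFD+AE (log2 difference -1.13, SE 0.40). Of 14 heat shock chaperones, 13 lay below 0 with a median of -0.41, 0 were called and 6 were lower without overlap. Hsph1, a large chaperone of the Hsp110 family, was 44, 25.6 and 19.4 CPM in HFD+RE and 90.4, 65.3 and 45.4 CPM in HFD+AE (-1.18, SE 0.41). The margin between HFD+RE 3 and HFD+AE 3 was small for Hsph1. Hspa1b, an inducible Hsp70 gene with a near-identical copy that can share its reads, was 5.07, 3.85 and 6.11 CPM in HFD+RE and 23.6, 11.1 and 9.29 CPM in HFD+AE. Both genes had an adjusted p of 0.606.

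**Figure D2:**
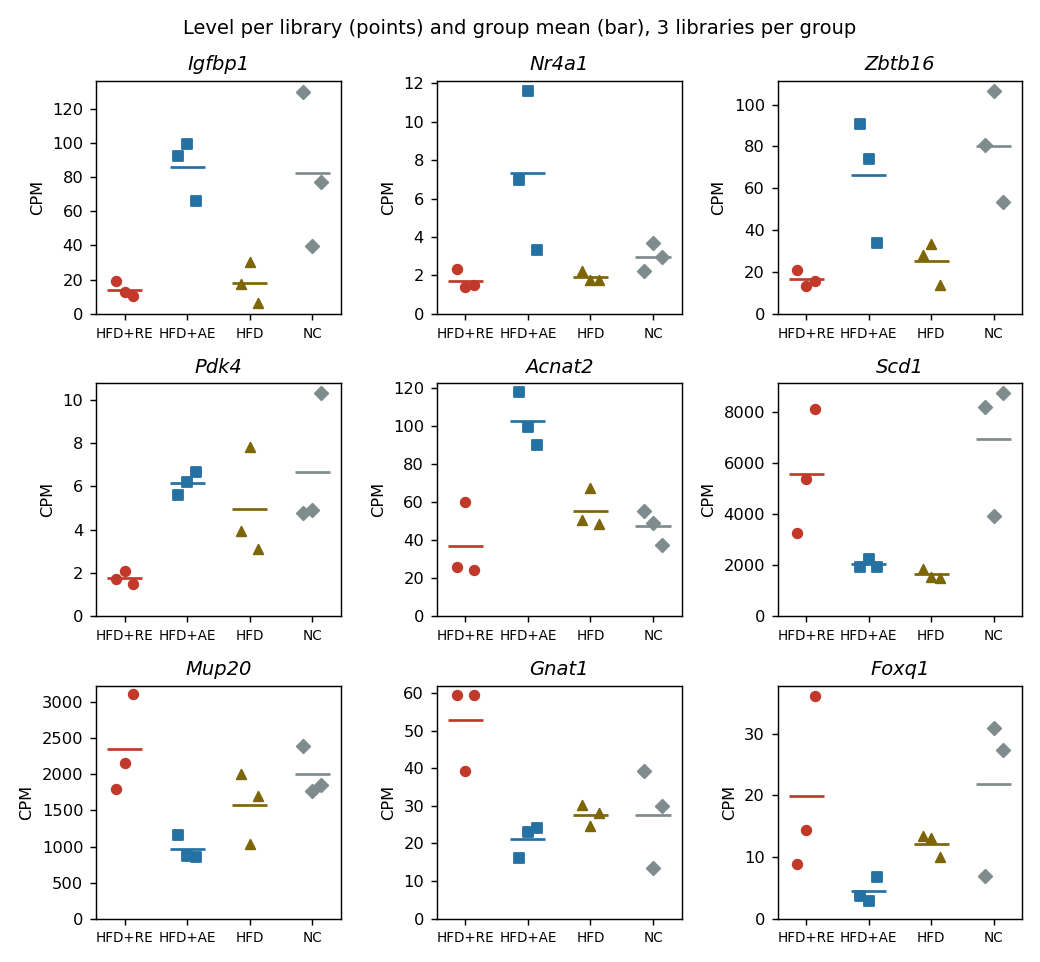
CPM per library (points) and group mean (bar) of 9 genes among those with the smallest p, for HFD+RE, HFD+AE and the untrained HFD and NC groups, 3 libraries each. In each panel the 3 HFD+RE points lie on one side of the 3 HFD+AE points, which follows largely from choosing genes by p. Igfbp1 is at 10.2 to 19.3 CPM in HFD+RE and 66.1 to 99.6 CPM in HFD+AE.

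Fat synthesis showed the opposite side for its desaturase. Scd1, stearoyl-CoA desaturase, which makes monounsaturated fatty acids for storage, was 3278, 5379 and 8093 CPM in HFD+RE against 1936, 2240 and 1943 CPM in HFD+AE. All 3 HFD+RE libraries were higher, with a wide spread among them (log2 difference 1.45, SE 0.34; adjusted p = 0.606 in edgeR and 0.0162 in DESeq2). HFD libraries averaged 1640 ± 196 CPM and NC libraries 6951 ± 2637 CPM (SD, n = 3 each), so here HFD+AE lay near HFD. Scd1 lies on chromosome 19 (44394455 to 44407879, minus strand, mm10). The rest of the pathway did not separate as cleanly. Of 21 genes of lipogenesis and desaturation, 15 lay above 0 with a median of 0.18. None (0) was called, and without overlap 1, Scd1, was higher and 1 was lower. Srebf1, the gene of SREBP-1c, was 430, 323 and 610 CPM in HFD+RE and 190, 268 and 362 CPM in HFD+AE (0.74, SE 0.38), with HFD+RE 4 below HFD+AE 3. It shares a stretch with Rai1 on the other strand. Fasn, fatty acid synthase, was 270, 200 and 864 CPM in HFD+RE and 159, 315 and 229 CPM in HFD+AE, and its difference of 0.92 (SE 0.46) rested on HFD+RE 5. Without HFD+RE 5 the list's median was -0.09, and without HFD+RE 3 it was 0.45. Of 25 genes of cholesterol synthesis, 15 lay above 0 (median 0.13), 0 were called and the groups overlapped for all 25; without HFD+RE 5 that median was -0.20, and without HFD+AE 2 it was 0.42.

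Fatty acid oxidation lay lower in HFD+RE as a group. Of its 29 genes (oxidation, ketogenesis and targets of the fatty acid receptor PPARA), 28 had a difference below 0 and the median was -0.37, against 0.01 over all genes. None (0) was called, 4 had an unadjusted p below 0.05, and 7 were lower without overlap, where 5.4% of all genes were. Pdk4, given above, was among the 7. Leaving out any 1 exercised library gave a median between -0.53 and -0.30. Ppara itself was 236, 187 and 162 CPM in HFD+RE and 263, 244 and 239 CPM in HFD+AE. HFD+RE 3 came within a few CPM of the lowest HFD+AE library (log2 difference -0.35, SE 0.17, adjusted p = 0.606). Ehhadh, a peroxisomal enzyme of the oxidation spiral, was 228, 170 and 119 CPM in HFD+RE and 308, 285 and 299 CPM in HFD+AE (-0.79, SE 0.35). Cpt1a, the gate for long-chain fatty acids into mitochondria, overlapped at 776, 595 and 452 CPM in HFD+RE and 749, 794 and 764 CPM in HFD+AE (-0.34, SE 0.25). Fgf21, a fasting hormone made under PPARA, differed by -0.02 (SE 0.47), an interval of -1.02 to 0.99.

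Uptake, storage and export of fat gave mixed values. Cd36, a fatty acid transporter, was 84, 92.4 and 27 CPM in HFD+RE and 132, 140 and 108 CPM in HFD+AE. The groups did not overlap and HFD+RE 5 was far lower than the other 5 (log2 difference -0.90, SE 0.39, adjusted p = 0.606). Among genes of lipid droplets and uptake, 11 of 25 lay above 0 and 14 below, with a median of -0.08. Plin2, the main droplet coat protein of hepatocytes, averaged 388 ± 82.6 CPM in HFD+RE and 384 ± 148 CPM in HFD+AE (SD, n = 3 each), a log2 difference of 0.01 with an interval of -0.59 to 0.62. Cidec, a protein that fuses droplets, was 9.95, 8.83 and 11.1 CPM in HFD+RE and 6.79, 6.7 and 8.71 CPM in HFD+AE, higher in HFD+RE by a narrow margin (0.43, SE 0.27). Cidea, a related protein, overlapped, at 0.303, 0.545 and 1.6 CPM in HFD+RE and 0.748, 0.106 and 0.165 CPM in HFD+AE. The 2 Cide genes were far below the HFD group in both kinds of training: HFD averaged 34.4 ± 12.7 CPM for Cidec and 5.8 ± 1.32 CPM for Cidea. Pparg, a regulator of storage genes, overlapped (-0.25, SE 0.21). Plin4, a droplet coat protein that shares a stretch with Hdgfl2 on the other strand, was 26.6, 41.8 and 32.2 CPM in HFD+RE and 83.6, 42.1 and 47.3 CPM in HFD+AE, where HFD+RE 4 and HFD+AE 2 nearly met. Vldlr, a lipoprotein receptor, overlapped at 5.05, 8.77 and 3.23 CPM in HFD+RE and 7.76, 12 and 12.7 CPM in HFD+AE (-0.93, SE 0.35). Mttp, which loads lipid onto apolipoprotein B for secretion, was 277, 230 and 173 CPM in HFD+RE and 336, 368 and 384 CPM in HFD+AE, without overlap (-0.68, SE 0.25). Angptl8, an insulin-induced secreted regulator of lipase activity, was 40.1, 56.7 and 75.9 CPM in HFD+RE and 29.3, 25 and 30.9 CPM in HFD+AE, also without overlap (1.02, SE 0.41).

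Most detoxification genes lay at lower levels in HFD+RE. Of 23 genes of xenobiotic metabolism, 21 lay below 0 with a median of -0.53; 0 were called, 8 had an unadjusted p below 0.05, all lower in HFD+RE, and 9 were lower without overlap. Without HFD+RE 5 the median was -0.34. Nr1i3, the xenobiotic receptor CAR, was 57.7, 46.4 and 45.7 CPM in HFD+RE and 93.5, 73.5 and 73.5 CPM in HFD+AE (log2 difference -0.68, SE 0.17, adjusted p = 0.606). The 2 sets were tight and apart, although part of Nr1i3 overlaps Tomm40l on the other strand. Ces2c, a carboxylesterase with close copies, was 10.5, 10.7 and 7.64 CPM in HFD+RE and 17.7, 17.3 and 19.2 CPM in HFD+AE (-0.91, SE 0.24). Cyp2e1, an abundant pericentral oxidase, was 9415, 11923 and 6506 CPM in HFD+RE and 13349, 12277 and 18067 CPM in HFD+AE (-0.65, SE 0.27). Of 13 pericentral genes, 12 lay below 0 with a median of -0.32, 0 were called and 1 was lower without overlap. Without HFD+AE 3 it was -0.18. Of 11 periportal genes, 6 lay above 0 with a median of 0.03, or 0.42 without HFD+AE 3. Gls2, the liver glutaminase of the periportal zone, was 539, 436 and 452 CPM in HFD+RE and 303, 327 and 386 CPM in HFD+AE, higher without overlap (0.49, SE 0.19), and it shares a stretch with Spryd4 on the other strand.

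Bile acid genes were mostly lower as well: 21 of 23 lay below 0 with a median of -0.31, 0 were called, 4 were lower and 1 higher without overlap. Abcc3, which exports bile acid conjugates to blood, was 217, 339 and 214 CPM in HFD+RE and 370, 354 and 637 CPM in HFD+AE (log2 difference -0.82, SE 0.29). HFD+RE 4 and HFD+AE 2 were close for Abcc3. The 1 higher gene, Slc51b, a subunit of the basolateral bile acid exporter, was near the detection limit, at 0.208, 0.291 and 0.333 CPM in HFD+RE and 0.0312, 0.0532 and 0.0412 CPM in HFD+AE. Cyp7a1, whose enzyme limits the making of bile acids from cholesterol, overlapped widely, at 348, 133 and 133 CPM in HFD+RE and 355, 299 and 149 CPM in HFD+AE (-0.39, SE 0.95). Cyp8b1, which sets the share of 12-hydroxylated bile acids, also overlapped (-0.41, SE 0.35). Acnat2, of a family that joins fatty acyl groups to amino acids, was 25.8, 60.1 and 24.2 CPM in HFD+RE and 117, 99.2 and 90.1 CPM in HFD+AE. HFD+RE 4 lay between the other HFD+RE libraries and HFD+AE (-1.48, SE 0.31; adjusted p = 0.556 in edgeR and 0.0118 in DESeq2). Without HFD+RE 4 the difference was -2.04 and Acnat2 was 1 of 2 genes called (0.0106% of 18856), with an adjusted p of 0.015.

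Genes with sex-biased levels in mouse liver follow the pattern of growth hormone release. Of 21 male-biased genes, 11 lay above 0 with a median of 0.19, 0 were called, 3 were higher and 1 lower without overlap. That median was 0.60 without HFD+AE 1 and 0.00044 without HFD+AE 2. Mup20, a urinary pheromone carrier, was 1796, 2150 and 3108 CPM in HFD+RE and 1159, 870 and 853 CPM in HFD+AE, a clear gap (log2 difference 1.29, SE 0.28; adjusted p = 0.606 in edgeR and 0.0118 in DESeq2). The Mup genes are near copies, so reads may be shared, and the summed level of 22 of them overlapped: it was 18168, 16332 and 25537 CPM in HFD+RE and 24247, 12911 and 8310 CPM in HFD+AE. Cyp2u1, a fatty acid hydroxylase, was 66.5, 60.3 and 84.3 CPM in HFD+RE and 38.9, 34.2 and 53.1 CPM in HFD+AE, without overlap (0.74, SE 0.21). Hsd3b5, a male-specific steroid dehydrogenase, was 124, 25.2 and 112 CPM in HFD+RE and 77, 26.6 and 17.4 CPM in HFD+AE, against 0.272 to 0.422 CPM in HFD. Of 18 tested female-biased genes, 14 lay below 0 with a median of -0.77, 0 were called and 3 were lower without overlap. The median was -1.30 without HFD+RE 4 and -0.55 without HFD+RE 5. Cyp2b9, a female-biased cytochrome, was 8.77, 201 and 8.27 CPM in HFD+RE and 99.2, 211 and 312 CPM in HFD+AE. Its difference of -1.51 (SE 0.93, adjusted p = 0.621) was -4.61 without HFD+RE 4, the one high library of its group, and it was then the other gene called (adjusted p = 0.015). Cyp17a1, a steroid hydroxylase on the same list, overlapped, with a mean of 58.2 ± 3.81 CPM in HFD+RE and 43.7 ± 15.2 CPM in HFD+AE. Igf1, the growth factor made under growth hormone, differed by 0.11 (SE 0.28), an interval of -0.49 to 0.72.

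Genes of ribosomes and of the respiratory chain lay mostly above 0, while HFD+RE 3 was with HFD+AE 1 and 2 in the summed level of both. All 34 cytosolic ribosomal protein genes lay above 0 (median 0.45), yet 0 were called and the groups overlapped for all 34. Their summed level was 4145, 8037 and 7588 CPM in HFD+RE and 4121, 4209 and 6562 CPM in HFD+AE, so HFD+RE 3 sat with HFD+AE 1 and 2. Rpl38, a protein of the large subunit, was 24.7, 94.5 and 90.1 CPM in HFD+RE and 16.7, 19.5 and 53.9 CPM in HFD+AE. Of 41 respiratory chain subunits from the nuclear genome, 33 lay above 0 with a median of 0.41, 0 were called and 1 was lower without overlap. Their summed level was 4247, 7454 and 6867 CPM in HFD+RE and 4432, 4591 and 6497 CPM in HFD+AE. Ndufs4, a subunit of complex I, was 37.2, 72.8 and 82.2 CPM in HFD+RE and 37, 39.3 and 38.7 CPM in HFD+AE, where HFD+RE 3 was inside the HFD+AE range. Removing each library's length trend took the median to 0.32 for the ribosomal genes and to 0.22 for the nuclear respiratory genes. For the 13 respiratory genes of the mitochondrial genome the median was 0.29 as counted, 0.07 with the length trend removed and 0.015 without HFD+RE 4. Without HFD+RE 4 the medians were 0.28 for the ribosomal and 0.23 for the nuclear respiratory genes, and without HFD+RE 3 the nuclear respiratory median was 0.65. Ppargc1b, a coactivator of mitochondrial genes, was 10.5, 12.2 and 13.7 CPM in HFD+RE and 5.76, 7.09 and 8.11 CPM in HFD+AE, without overlap (log2 difference 0.79, SE 0.24, adjusted p = 0.606). Ppargc1a, the related coactivator known from trained muscle, overlapped, with means of 13.1 ± 2.51 CPM in HFD+RE and 14.2 ± 4.4 CPM in HFD+AE (SD, n = 3 each).

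The clock genes gave values in both directions. Of 20, 9 lay above 0 and 11 below (median -0.03), 0 were called, 2 were higher and 3 lower without overlap. Cry1, a repressor of the clock, was 8.87, 10.9 and 8.34 CPM in HFD+RE and 18.9, 16.2 and 17.3 CPM in HFD+AE (log2 difference -0.90, SE 0.26). Bhlhe41, another repressor, was 3.9, 2 and 3.29 CPM in HFD+RE and 1.26, 0.868 and 0.824 CPM in HFD+AE (1.63, SE 0.50). Both sets were apart, in opposite directions, and each had an adjusted p of 0.606. The labels give no hour of collection.

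Among the other genes with the smallest p, several have roles best known outside hepatocytes. Higher in HFD+RE without overlap was Gnat1, the alpha subunit of rod transducin, at 59.5, 39.3 and 59.4 CPM in HFD+RE and 16.2, 23.1 and 24.2 CPM in HFD+AE (log2 difference 1.32, SE 0.32; DESeq2 adjusted p = 0.0499). Foxq1, a forkhead transcription factor, was 8.94, 14.4 and 36 CPM in HFD+RE and 3.71, 2.82 and 6.8 CPM in HFD+AE (2.16, SE 0.56; DESeq2 adjusted p = 0.0315), with HFD+RE 5 far higher than the other 2 of its group. Grik5, a kainate receptor subunit, was 14, 15.8 and 20 CPM in HFD+RE and 10.7, 7.64 and 7.04 CPM in HFD+AE. Izumo4, of the sperm-egg fusion family, averaged 14.8 ± 3.75 CPM in HFD+RE and 7.33 ± 1.21 CPM in HFD+AE. Gins1, part of the replication helicase, averaged 4.59 ± 0.594 CPM in HFD+RE and 2.45 ± 0.0565 CPM in HFD+AE (SD, n = 3 each). The DESeq2 adjusted p was 0.0152 for Grik5, 0.0315 for Izumo4 and 0.0209 for Gins1. Bcat2, a branched-chain aminotransferase, averaged 40.4 ± 3.77 CPM in HFD+RE and 25.6 ± 3.19 CPM in HFD+AE, but an abundant transcript overlaps it on the other strand. The remaining 2, Bloc1s2 of a lysosome-related complex and the phosphatase Dusp12, had log2 differences of 0.74 (SE 0.18) and 0.66 (SE 0.17). Lower in HFD+RE without overlap was Ablim3, an actin-binding protein, at 15.9, 13.8 and 16.3 CPM in HFD+RE and 39.1, 23.7 and 28.5 CPM in HFD+AE (-0.99, SE 0.20; DESeq2 adjusted p = 0.0118). Map3k13 and Map3k5, kinases that feed stress signals into the JNK pathway, differed by -1.24 (SE 0.29) and -0.61 (SE 0.16). Map3k13 shares a stretch with 1300002E11Rik on the same strand, so its count is uncertain. Pdgfrl, a receptor-like protein, was 0.378, 0.4 and 0.765 CPM in HFD+RE and 5.02, 5.95 and 0.906 CPM in HFD+AE, and HFD+AE 3 lay beside HFD+RE.

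The remaining function lists had medians between -0.23 and 0.11. Amino acid catabolism and the urea cycle had 12 of 25 genes above 0 (median -0.01), with 2 higher and 2 lower without overlap; Slc25a13, the aspartate carrier of the urea cycle, was 300, 228 and 220 CPM in HFD+RE and 344, 348 and 308 CPM in HFD+AE (log2 difference -0.42, SE 0.18). Medians were -0.19 for 15 genes of one-carbon metabolism, -0.21 for 14 of the growth hormone axis, -0.21 for 23 of endoplasmic reticulum stress and -0.08 for 24 NRF2 targets. For the growth hormone axis the median was -0.017 without HFD+RE 3 and -0.036 with the length trend removed. They were -0.13 for 18 genes of mitochondrial biogenesis and energy sensing, 0.03 for 31 proteasome genes, -0.09 for 18 of autophagy and -0.09 for 20 of lipoproteins. They were -0.10 for 18 hepatokines, -0.22 for 14 genes of iron, -0.23 for 21 acute phase proteins and -0.17 for 21 of complement and coagulation. Without HFD+RE 5 the acute phase median was -0.040, and without HFD+AE 3 that of iron was -0.064. Of 31 interferon-stimulated genes 17 lay above 0 (median 0.08) and 3 were higher without overlap; Isg15, a ubiquitin-like protein, overlapped (0.55, SE 0.28). Of 20 cytokine and adhesion genes 11 lay above 0 (median 0.11). Of 25 cell cycle genes 19 lay below 0 (median -0.16), while Birc5, of the chromosomal passenger complex, was 1.89, 1.6 and 1.83 CPM in HFD+RE and 1.22, 1.2 and 0.721 CPM in HFD+AE (0.76, SE 0.30). Leaving out 1 exercised library gave medians over these lists from -0.45 (cell cycle, without HFD+RE 3) to 0.28 (cytokines and adhesion, without HFD+RE 5). In each of these lists 0 genes were called.

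**Figure D3:**
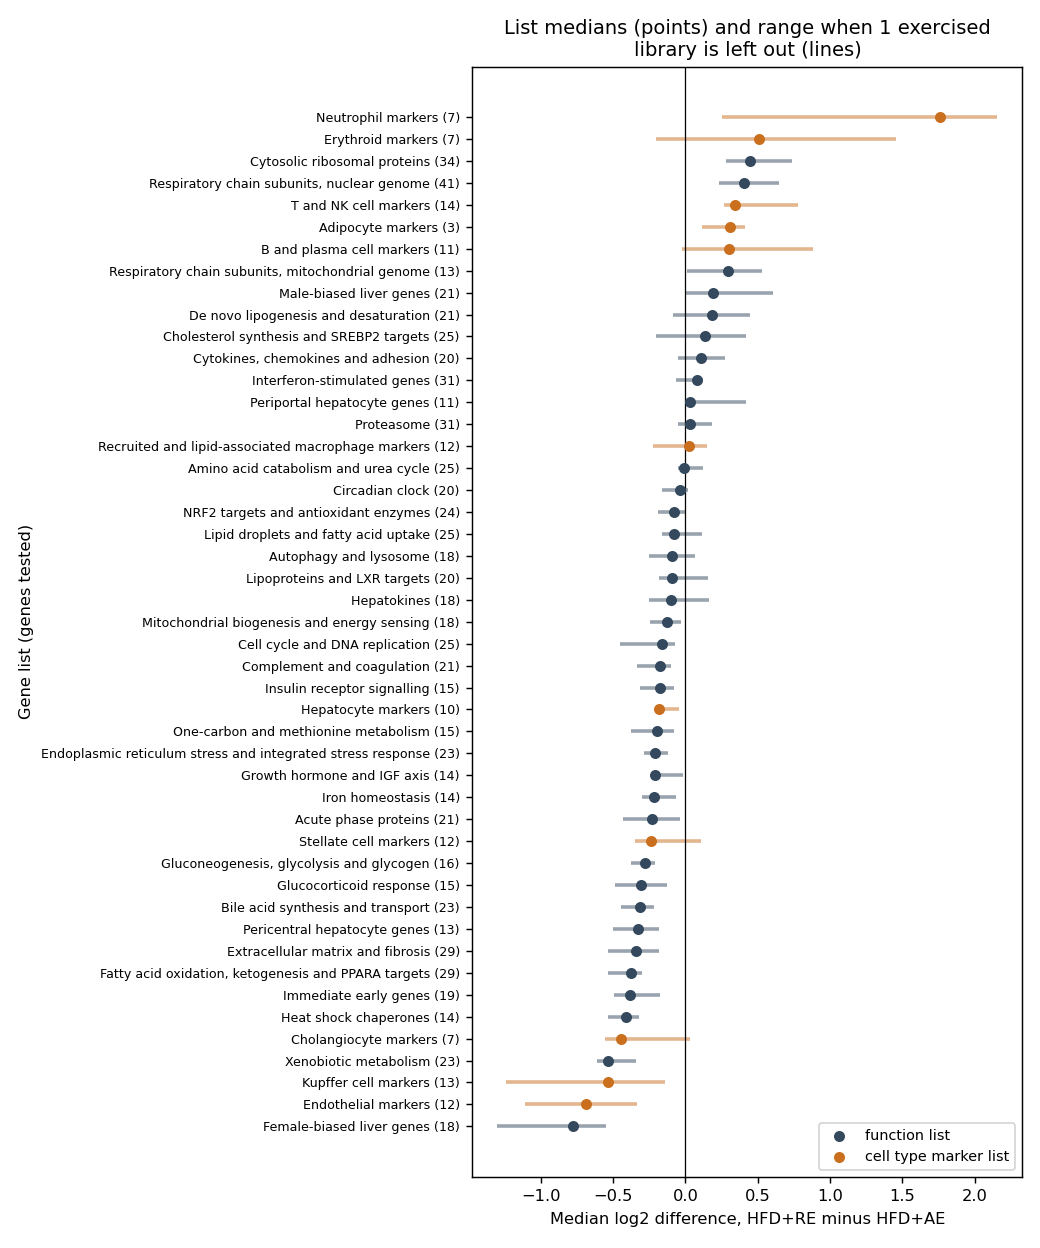
Median log2 difference (HFD+RE minus HFD+AE) of each gene list with at least 3 genes tested (points), with the range of that median when 1 of the 6 exercised libraries is left out (lines); dark points are function lists and orange points are cell type markers. Xenobiotic and fatty acid oxidation genes stay below 0 over the whole range, at -0.61 to -0.34 and -0.53 to -0.30, and ribosomal protein genes stay above 0, at 0.28 to 0.73, while neutrophil and erythroid markers have the longest lines.

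Markers of cells other than hepatocytes varied widely among the libraries of a group. In whole liver, fewer cells of a type and less RNA per cell cannot be told apart. All 13 Kupffer cell markers, of the resident liver macrophage, lay below 0 with a median of -0.54, 0 were called and the groups overlapped for all 13. Their summed level was 442, 245 and 87.9 CPM in HFD+RE and 462, 363 and 347 CPM in HFD+AE, so HFD+RE 3 lay inside the HFD+AE range and HFD+RE 5 stood lowest. Cd163, a scavenger receptor of Kupffer cells, was 18.1, 10.4 and 2.9 CPM in HFD+RE and 33.4, 26.6 and 11.5 CPM in HFD+AE. All 12 endothelial markers lay below 0 as well (median -0.68), with 0 called and 1 lower without overlap. Their sum was 369, 269 and 124 CPM in HFD+RE and 458, 505 and 295 CPM in HFD+AE, again lowest in HFD+RE 5. Stab2, a hyaluronan receptor of sinusoidal endothelium, was 50.3, 29.7 and 21.5 CPM in HFD+RE and 76.3, 79.7 and 43.3 CPM in HFD+AE (log2 difference -0.97, SE 0.31). Without HFD+RE 5 the medians were -0.14 for Kupffer cell markers and -0.33 for endothelial markers, and without HFD+RE 3 they were -1.24 and -1.11.

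Lymphocyte markers had medians above 0. Of 11 B and plasma cell markers, 9 lay above 0 with a median of 0.30, 0 were called and 3 were higher without overlap (background 5.88%). The median was -0.026 without HFD+RE 5 and 0.88 without HFD+AE 3. Their sum was 56.6, 58.3 and 105 CPM in HFD+RE and 42.9, 40.2 and 41.8 CPM in HFD+AE, without overlap. Igkc, the kappa light chain constant gene, was 23.9, 32.4 and 56 CPM in HFD+RE and 10.4, 11.8 and 17.3 CPM in HFD+AE (log2 difference 1.51, SE 0.51). Of 14 T and NK cell markers, 11 lay above 0 with a median of 0.34, 0 were called and 2 were higher without overlap, at sums of only 8.77 to 12 CPM in HFD+RE and 4.66 to 9.43 CPM in HFD+AE. Without HFD+AE 3 that median was 0.78. The 7 tested neutrophil markers had a median of 1.76, or 0.26 without HFD+RE 5. S100a9, a calcium-binding protein of neutrophils, was 0.567, 0.836 and 3.36 CPM in HFD+RE and 0.374, 0.425 and 0.618 CPM in HFD+AE. The 7 erythroid markers had a median of 0.51, or -0.20 without HFD+RE 5. Medians were -0.18 for 10 hepatocyte markers (-0.042 without HFD+RE 5), -0.24 for 12 stellate markers (0.11 without HFD+AE 3) and -0.44 for 7 cholangiocyte markers (0.030 without HFD+AE 2). The 3 adipocyte markers tested had a median of 0.31, while the summed level of all 7 was lower without overlap, at 2482 to 2970 CPM in HFD+RE and 3354 to 3856 CPM in HFD+AE. Nearly all of that sum was Car3, a carbonic anhydrase that hepatocytes also make (log2 difference -0.44, SE 0.22). The 12 markers of recruited and lipid-associated macrophages had a median of 0.02, and Trem2, their lipid-sensing receptor, overlapped (-0.29, SE 0.51). Of 29 matrix genes 24 lay below 0 (median -0.34), 0 were called and 5 were lower without overlap, and the median was -0.18 with the length trend removed, also -0.18 without HFD+RE 4 and -0.53 without HFD+RE 3. Col4a1, a basement membrane collagen that abuts Col4a2, was 18.4, 13.9 and 11.2 CPM in HFD+RE and 21.1, 20.7 and 26.6 CPM in HFD+AE. Col1a1, the main fibrillar collagen, averaged 3.93 ± 0.656 CPM in HFD+RE and 5.08 ± 2.67 CPM in HFD+AE, and 11.8 ± 4.63 CPM in HFD (SD, n = 3 each). The cytokine Tnf and the acute phase protein Saa1 overlapped, with log2 differences of 0.44 (SE 0.64) and -0.55 (SE 0.72). Of 12 pancreatic acinar markers 8 were at 0 in the 6 exercised libraries, and the 12 summed to 13.4 to 31 CPM in HFD+RE and 20.8 to 24.5 CPM in HFD+AE. Nearly all of it was Cela1, an elastase, at 24.2 ± 9.57 CPM in HFD+RE and 22.2 ± 1.89 CPM in HFD+AE (SD, n = 3 each). The 10 skeletal muscle markers summed to at most 1.43 CPM in HFD+RE and 0.989 CPM in HFD+AE. What part cell composition had in the gene differences was not tested.

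Genes that responded to diet in the untrained mice gave a broad pattern in the trained ones. The HFD and NC libraries are not in the comparison of the 2 kinds of training, so they give lists chosen on other libraries, although the estimate of the spread is shared by all 12. In HFD against NC, edgeR called 2851 genes (15.6%), 1534 higher in HFD (8.38%) and 1317 lower (7.19%). Of the 1534 genes higher in HFD, 1274 (83.1%) were higher in HFD+RE than in HFD+AE, with a median log2 difference of 0.42 against 0.01 over all genes. Their groups did not overlap for 238 genes higher in HFD+RE (15.5%, against 5.88% of all genes) and for 33 lower (2.15%, against 5.4%). Of the 1317 genes lower in HFD, 1126 (85.5%) were lower in HFD+RE, with a median of -0.31. Of these 1317, 234 were lower in HFD+RE without overlap (17.8%) and 16 higher (1.21%). Over both lists the HFD+RE values lay toward HFD and the HFD+AE values toward NC, but 0 of the 2851 genes were called between the 2 kinds of training. The untrained groups also lay apart on library features. HFD libraries spanned -0.288 to -0.153 in length correlation and 23 to 80.8 on the first component. NC libraries spanned 0.0831 to 0.205 and -72.7 to -40.25. Mitochondrial ribosomal RNA took 1.76% to 3.26% of HFD counts against 0.708% to 0.924% of NC counts. HFD+RE 4 and 5 were on the HFD side of 0 in length correlation and first component, and so was HFD+AE 3 (-0.0322 and 13.95). With each library's length trend removed, 2564 genes were called in HFD against NC, and 3348 with length and GC content removed together. How far these features shaped which genes were on the diet lists was not tested.

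Single libraries show how uneven that was. Relative to the NC mean, the median of the genes higher in HFD was 0.544, 1.19 and 1.19 (log2) in HFD+RE and 0.461, 0.484 and 0.844 in HFD+AE, against 1.11 to 1.69 in HFD. HFD+RE 3 lay among the HFD+AE libraries and lower than HFD+AE 3. For the genes lower in HFD the medians were -0.319, -0.82 and -0.869 in HFD+RE and -0.228, -0.263 and -0.511 in HFD+AE, against -1.22 to -0.703 in HFD. For both lists HFD+RE 4 and 5 lay inside the HFD range, and the other 4 exercised libraries lay between it and the NC mean. Leaving out 1 exercised library at a time gave medians between the groups of 0.31 to 0.57 for the genes higher in HFD and of -0.49 to -0.21 for those lower. The genes higher in HFD were short (median 2445 bases) and those lower were long (median 5277 bases), against 3548 bases over all genes. With each library's length trend removed the medians were 0.37 and -0.22, and with length and GC content removed together they were 0.37 and -0.21. The genes that did not overlap between HFD+RE and HFD+AE had the same tilt, with a median length of 2493.5 bases where HFD+RE was higher and 4922 bases where it was lower.

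**Figure D4:**
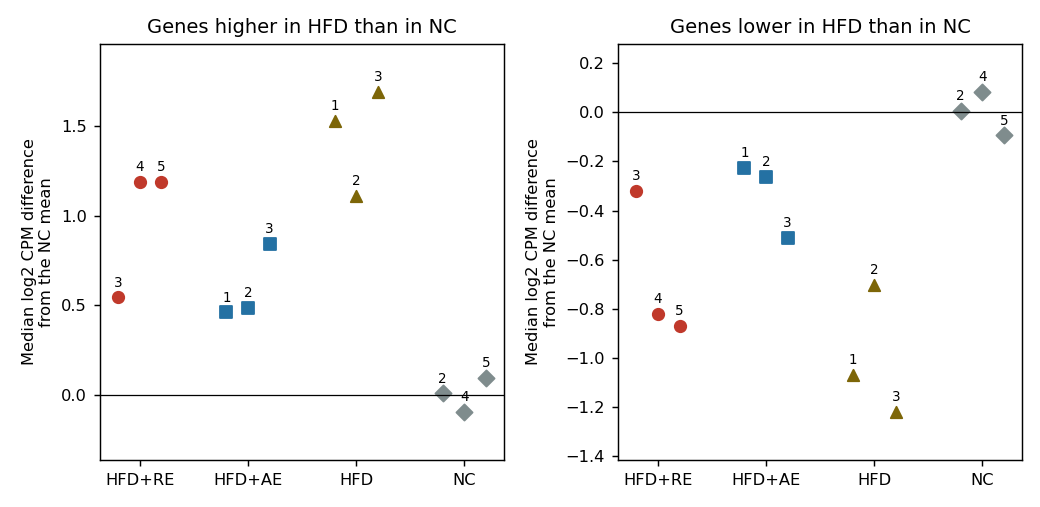
Median log2 CPM difference from the NC mean in each library, over the 1534 genes higher in HFD than in NC (left) and the 1317 genes lower (right); numbers are the library labels. HFD+RE 4 and 5 lie at 1.19 on the left, above HFD+AE 1, 2 and 3 at 0.461 to 0.844, while HFD+RE 3 lies at 0.544.

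The count of called genes between the 2 kinds of training differed between settings. It was 0 in edgeR with 2 other scalings, with a fixed minimum of 10 counts in 3 libraries, with the 6 exercised libraries alone, with a test against a fold of 1.5, with the length trend removed and with counts halved. It was 2 without the low-count filter (Pdk4 and Nr4a1, 0.00638% of 31348 genes). At an unadjusted p below 0.05 the 1468 genes became 4587 without HFD+RE 3 and 3045 without HFD+AE 3, the libraries that each lay nearest to one of the other group, and the smallest adjusted p was then 0.0723 and 0.0933. Without HFD+RE 5 it was 536 genes, and without HFD+AE 2 it was 854.

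**Figure D5:**
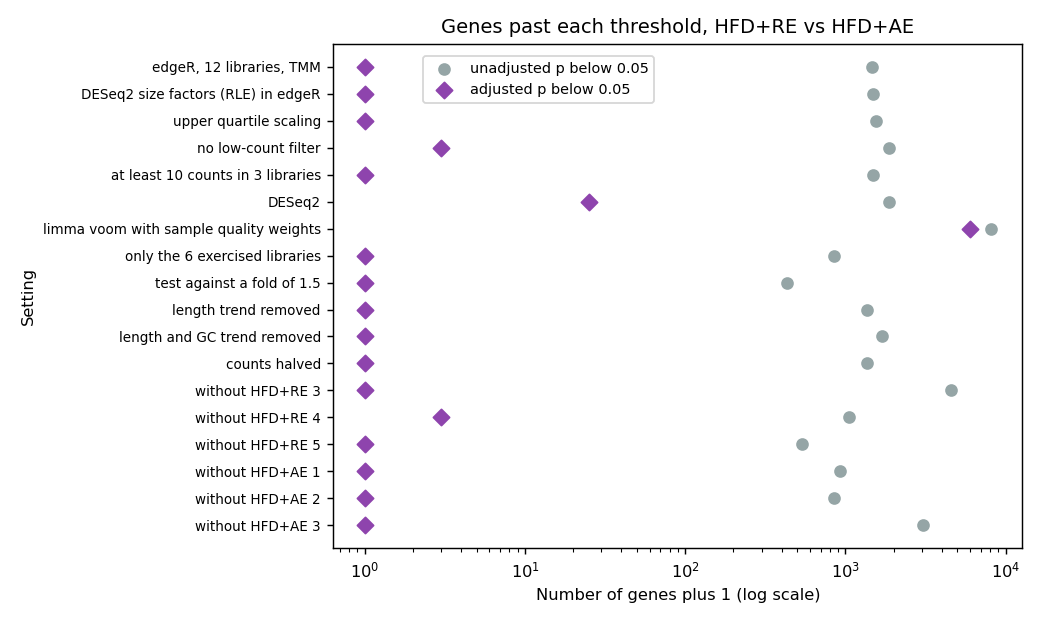
Number of genes plus 1 (log axis) at an unadjusted p below 0.05 (circles) and at an adjusted p below 0.05 (diamonds) between HFD+RE and HFD+AE under each setting, one row per setting. The diamonds are at 0 genes in most rows, at 24 with DESeq2 and at 5975 with voom and sample quality weights.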

How the data were processed

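RNA from liver was sequenced in 12 libraries, and the authors deposited 1 table of whole-number read counts per gene with no normalization. Per the file headers, featureCounts 2.0.6 made the counts. The submitters' processing notes also list fastp, HISAT2 (2.2.1), DESeq2 (1.40.1) and the build mm10. Strand setting, annotation release and the handling of reads with several matches are not stated there, so near-identical and overlapping genes are uncertain. Of the counts from 1 to 10, 72.3% were even, which would be so if both reads of a pair were counted; halving them was an alternative. No 2 libraries agreed within sampling noise (smallest chi-square per degree of freedom 89.1, 66 pairs), and all 12 were kept. 0 sample columns were left unmapped.

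Genes were tested in R 4.3.3 with edgeR 4.0.16: TMM scaling, the default low-count filter by group, 1 mean per group over all 12 libraries, and the robust quasi-likelihood F-test with Benjamini-Hochberg adjustment over 18305 genes. Intervals are 95%. Levels and principal components used CPM, the latter as log2 with a prior count of 2. The test was also run on simulated counts with known changes. These were drawn independently for each gene and library, without the length trend or shared axis of the real libraries. The run therefore does not show how the test behaves under those features. DESeq2 1.42.0 and limma 3.58.1 were alternatives, with scaling, filter, left-out libraries and length (spline with 5 degrees of freedom) and GC content. GC content came from GENCODE M21 for 98.1% of the tested genes.

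The comparison and the 49 gene lists (36 functions, 13 cell types) were chosen with earlier results of these data known. Some lists share genes, so their counts and medians are not independent. Pdk4 is in the glucocorticoid and fatty acid oxidation lists, and Igfbp1 in the growth hormone and hepatokine lists. Genes named are the 10 with the smallest p in each direction (mean log2 CPM above 1, no predicted names). Also named are up to 2 per list by smallest p, and 27 whether called or not. The 27 are not a blind choice, since earlier results of these data were known. The text gives part of the named genes, a choice made after their values were seen. The motifs, and the alternatives of length with GC content and of halved counts, were also chosen after seeing the data.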

Additional observations from a re-analysis of the deposited data

How the results depend on the processing

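With 3 libraries per group, the median SE of a log2 difference was 0.31, and edgeR called 0 genes between HFD+RE and HFD+AE. That count was 2 without the low-count filter, 24 with DESeq2 and 5975 with limma voom and sample quality weights, and 0 to 2 when 1 exercised library was left out (2 without HFD+RE 4, 0 without each of the other 5). Genes called in HFD against NC numbered 2851, and 9662 with voom and quality weights, 445 in a test against a fold of 1.5, and 2137 to 4462 with 1 exercised library left out (highest without HFD+RE 3). Of the genes named, those with a difference near 0 turned sign: Ppargc1a at 0.048 with the length trend removed and 0.070 with length and GC content removed, Fgf21 at 0.019 with upper quartile scaling and 0.65 with voom, and Igf1 at -0.0096 with voom. With 1 library left out, the log2 difference ran from -0.15 to 0.36 for Plin2, from -0.36 to 0.082 for Ppargc1a, from -0.33 to 0.55 for Fgf21, from -0.096 to 0.34 for Igf1, from -0.65 to 0.12 for Col1a1, from -0.0070 to 0.95 for Tnf and from -0.72 to 0.14 for Trem2. The cause was not tested. No paired analysis was possible because the HFD+RE and HFD+AE libraries share only the number 3.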
